A study of Arabidopsis thaliana with 24 samples.

Results

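The type-A response regulators are the cytokinin-inducible members of the two-component signaling family of Arabidopsis, and 10 of them were followed here through dark-induced leaf senescence: ARR3 (AT1G59940), ARR4 (AT1G10470), ARR5 (AT3G48100), ARR6 (AT5G62920), ARR7 (AT1G19050), ARR8 (AT2G41310), ARR9 (AT3G57040), ARR15 (AT1G74890), ARR16 (AT2G40670) and ARR17 (AT3G56380). They were taken by locus from the 32627 genes of the array, all 10 were present, and none was removed by a filter. The third or the fourth leaves at 12 days after emergence were detached from Arabidopsis plants grown in soil for 21 days under 16 h of light and 8 h of darkness, placed in 3 mM MES solution and kept in the dark. RNA was hybridised to NimbleGen arrays at 0, 1, 2 and 3 days after treatment (DAT), with 2 arrays for each of the 12 combinations of genotype and day, 24 in all. The genotypes were Col (the Columbia-0 wild type), ein2/ore3 (allele ein2-44/ore3-1, insensitive to ethylene) and ahk3/ore12 (allele ore12-1, a gain-of-function form of the cytokinin receptor AHK3 with a constitutive response). Each mutant was a single allele, and all 0 DAT samples were leaves before dark incubation, so that detachment, time in solution and darkness cannot be told apart.

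Cytokinin is perceived by the membrane histidine kinases AHK2, AHK3 and AHK4, which pass phosphate through the phosphotransfer proteins AHP1 to AHP5 to the type-B response regulators, transcription factors of the nucleus. The type-A genes are direct and rapid targets of the type-B factors, and their proteins feed back as negative regulators of the same pathway, so their transcripts are widely used as a readout of cytokinin signaling. The family falls into pairs of close sequence: ARR3 with ARR4, ARR5 with ARR6, ARR7 with ARR15, ARR8 with ARR9, and ARR16 with ARR17. In leaves, cytokinin delays senescence through AHK3 and the type-B regulator ARR2, whereas ethylene, signaling through EIN2, promotes it.

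Values were log2 expression values of each gene, each member being read by a single transcript variant of 3 (ARR6) or 4 probes. The median of all genes lay between 9.02 and 9.16 on the arrays, with the exception of ein2/ore3 at 2 DAT replicate 2 (8.91), and the 25th percentile lay between 6.72 and 7.09. No detection call was given, and a value under the 25th percentile of its own array is called low below. A fold change between a high and a low value may therefore be an underestimate, and levels of different genes, which have different probes, were not compared. The least similar replicates were those of Col at 1 DAT, whose values differed by a median of 0.30. The leaf transcripts RBCS1A, RCA, LHCB2.1, CAB3 and GAPB stood at or above percentile 97.0 on every 0 DAT array, and the root, flower and seed markers WOX5, AG and CRA1 at or below percentile 37.9. The root hair marker COBL9 stood between percentiles 46.9 and 50.1. In bulk leaf RNA, fewer cells of a type and less RNA per cell cannot be told apart.

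In Col, darkness was followed by a fall of most type-A transcripts within 1 day. At 1 DAT 8 of the 10 genes were lower than at 0 DAT at an adjusted p under 0.05, and none was higher (15% of all genes were called lower and 13.3% higher). At 2 DAT 7 were lower (17.9% of all genes) and none was higher (16.6%), and at 3 DAT 7 were lower (19.3%) and 2 were higher (20.2%). In either direction 28.3%, 34.6% and 39.4% of all genes were called on the 3 dark days. The median change over the 10 genes was -2.94 on the log2 scale at 1 DAT, against 0.08 over all genes, and it was -3.07 at 3 DAT, against 0.14. The 2 genes that rose by 3 DAT were ARR16 and ARR17, and ARR3 was the gene not called at any day in Col. In the F-test over the 4 days of the Col arrays, 9 of the 10 genes passed an adjusted p of 0.01 (15.9% of all genes), the exception being ARR3 (adjusted p = 0.546). The number was 5 when either array of 0 or 3 DAT was left out, and also with the F-test without moderation.

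**Figure D1:**
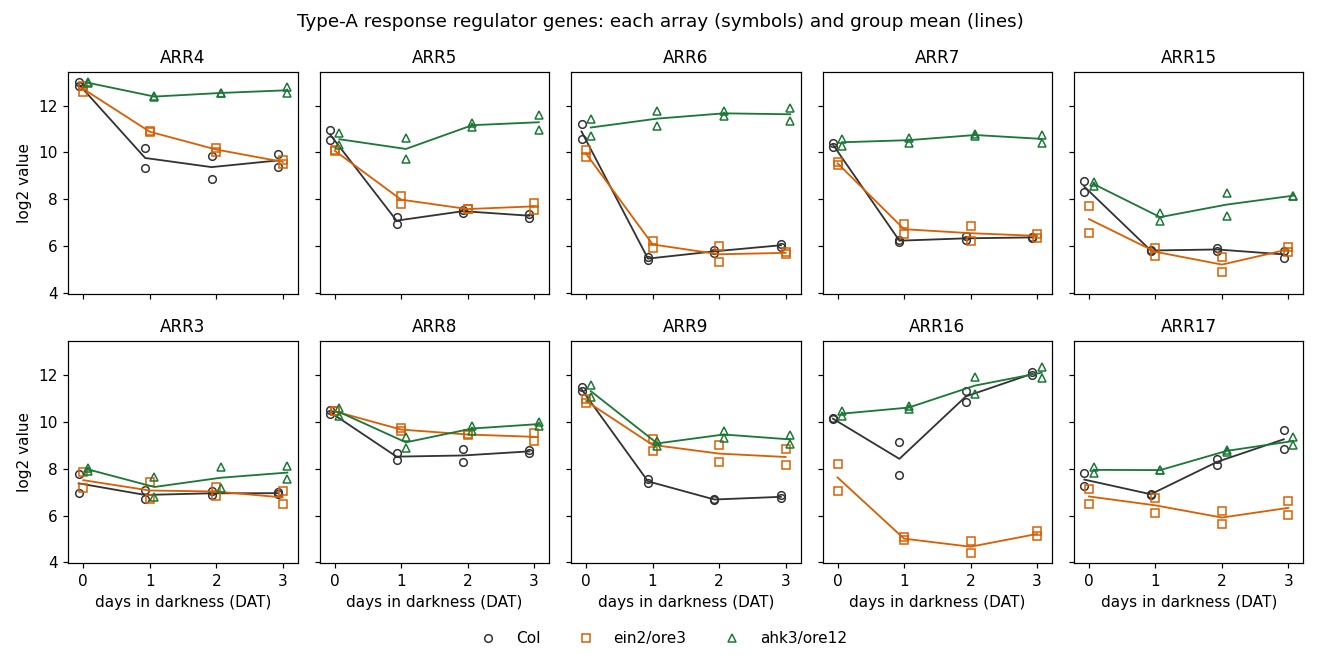
Log2 value of each of the 10 type-A genes (vertical axis) against days in darkness (horizontal axis) in Col, ein2/ore3 and ahk3/ore12. Open symbols are single arrays, 2 per condition, and lines join their means. ARR6 lay between 11.13 and 11.90 on the ahk3/ore12 arrays of 1 to 3 DAT and between 5.32 and 6.21 on those of Col and ein2/ore3, and ARR16 lay between 4.41 and 5.32 on the ein2/ore3 arrays of 1 to 3 DAT.

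ARR5 and ARR6 are a pair of early cytokinin response genes, and of the 10 members ARR6 had the largest fall in Col at 1 DAT and the largest difference of ahk3/ore12 from Col on each dark day. ARR6 in Col stood at 11.20 and 10.59 before darkness, at 5.40 and 5.54 at 1 DAT, at 5.83 and 5.73 at 2 DAT, and at 6.10 and 5.98 at 3 DAT. In ein2/ore3 the same gene stood at 9.79 and 10.10 before darkness, and then at 6.21 and 5.94, 5.99 and 5.32, and 5.67 and 5.76. In ahk3/ore12 it stood at 11.42 and 10.71 before darkness, and then at 11.76 and 11.13, 11.77 and 11.57, and 11.90 and 11.36. Thus the 12 dark arrays of Col and ein2/ore3 were all low on the scale for ARR6, and the 6 dark arrays of ahk3/ore12 were all above the Col mean at 0 DAT. In order of level, the 4 days of ahk3/ore12 and 0 DAT of Col came first, each overlapping its neighbour in the order, 0 DAT of ein2/ore3 came next, and the dark samples of Col and ein2/ore3 followed.

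ARR6 fell in Col by 5.42 on the log2 scale at 1 DAT (SE 0.289, 43.0-fold, adjusted p = 2.5e-09) and in ein2/ore3 by 3.87 (14.6-fold, adjusted p = 1.48e-07). The change in ahk3/ore12 was 0.38 (95% interval -0.24 to 1.00, adjusted p = 0.466) at 1 DAT and 0.56 (-0.05 to 1.18) at 3 DAT. The difference between ahk3/ore12 and Col was 0.17 at 0 DAT (adjusted p = 1.0), 5.97 at 1 DAT (SE 0.289, 62.9-fold, adjusted p = 3.7e-08), 5.89 at 2 DAT and 5.59 at 3 DAT. It ranked 1 of 32627 genes at 1 and 2 DAT and 4 at 3 DAT. Tested as a difference of the dark responses, the gap was 5.80 at 1 DAT (adjusted p = 1.02e-05), 5.72 at 2 DAT and 5.42 at 3 DAT. The fall of ARR6 in the first day was also smaller in ein2/ore3 than in Col, by 1.56 (adjusted p = 0.0375), a call that was lost on leaving out any of 9 arrays (adjusted p = 0.196 without Col 0 DAT replicate 1). The level of ARR6 in ein2/ore3 differed from Col by -0.95 at 0 DAT (95% interval -1.57 to -0.33, adjusted p = 0.365) and by 0.60 at 1 DAT, neither of them called.

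ARR5 was likewise highest in ahk3/ore12 on the dark days, and it had no low array. In Col it stood at 10.98 and 10.55 before darkness and between 6.95 and 7.56 on the 6 dark arrays, and in ein2/ore3 at 10.06 and 10.09 before darkness and between 7.56 and 8.16 after. In ahk3/ore12 it stood at 10.82 and 10.31 before darkness, at 10.60 and 9.70 at 1 DAT, at 11.24 and 11.09 at 2 DAT, and at 11.61 and 10.97 at 3 DAT. The ahk3/ore12 arrays of the dark days were thus all above those of the other genotypes. ARR5 fell by 3.67 in Col at 1 DAT (12.8-fold, adjusted p = 7.25e-08) and by 2.09 in ein2/ore3 (4.26-fold, adjusted p = 4.08e-05). In ahk3/ore12 its change was -0.41 at 1 DAT (95% interval -1.0 to 0.17) and 0.72 at 3 DAT (0.14 to 1.31, adjusted p = 0.0531, and 0.0194 with the replicate block). Against Col, ARR5 was higher in ahk3/ore12 by 3.06 at 1 DAT (8.34-fold, adjusted p = 7.04e-05), 3.67 at 2 DAT and 3.99 at 3 DAT (15.9-fold). Before darkness ARR5 in ein2/ore3 differed from Col by -0.69 (95% interval -1.27 to -0.11, adjusted p = 0.638). In ein2/ore3 it was called higher than in Col at 1 DAT, by 0.90 (adjusted p = 0.0423), and at no other day. This call was lost with median centring and on leaving out any of 14 arrays, with adjusted p = 0.303 without ein2/ore3 1 DAT replicate 1. Its dark response at 1 DAT was 1.58 above that of Col in ein2/ore3 (adjusted p = 0.0262, and 0.137 without Col 0 DAT replicate 1, 1 of 5 arrays whose omission lost the call), and 1.09 above at 3 DAT (adjusted p = 0.0713, and 0.0256 with the replicate block).

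ARR7 and ARR15, the pair best known from the shoot and root meristems, separated in their behavior in ahk3/ore12. ARR7 in Col stood at 10.42 and 10.25 before darkness, at 6.19 and 6.28 at 1 DAT, at 6.25 and 6.42 at 2 DAT, and at 6.41 and 6.34 at 3 DAT. In ein2/ore3 it stood at 9.46 and 9.61 before darkness and between 6.24 and 6.94 on the dark arrays. In ahk3/ore12 all 8 arrays lay between 10.28 and 10.80. ARR7 was low on 11 of the 24 arrays. These were all the dark arrays of Col and those of ein2/ore3 except 1 DAT replicate 1. ARR7 fell by 4.10 in Col (17.1-fold, SE 0.198, adjusted p = 9.82e-10) and by 2.81 in ein2/ore3 (7.01-fold, adjusted p = 8.68e-08) at 1 DAT, and its change in ahk3/ore12 was 0.09 (95% interval -0.33 to 0.51). The difference between ahk3/ore12 and Col was 4.29 at 1 DAT (19.6-fold, adjusted p = 2.93e-08), 4.41 at 2 DAT and 4.20 at 3 DAT, ranking 3, 5 and 10 among all genes. For ein2/ore3 the dark response of ARR7 was above that of Col by 1.29, 1.02 and 0.86 at 1, 2 and 3 DAT (adjusted p = 0.0145, 0.0303 and 0.0486), while the levels on those days differed from Col by 0.49, 0.22 and 0.06, none of them called, and the level before darkness differed by -0.80 (95% interval -1.22 to -0.38, adjusted p = 0.175). These calls were lost on leaving out any of 2, 6 and 18 arrays at 1, 2 and 3 DAT. Without Col 0 DAT replicate 1 the adjusted p at 2 and 3 DAT were 0.118 and 0.160, and at 1 DAT it was 0.0866 without ein2/ore3 1 DAT replicate 1.

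ARR15 fell with ARR7 in Col, and in ahk3/ore12 it fell on the first day, when ARR7 was not called. Its values in Col were 8.31 and 8.77 before darkness and between 5.51 and 5.93 afterwards, and in ein2/ore3 they were 6.58 and 7.73 before darkness and between 4.88 and 5.97 afterwards. In ahk3/ore12 they were 8.75 and 8.55, then 7.41 and 7.07 at 1 DAT, 7.30 and 8.25 at 2 DAT, and 8.15 and 8.16 at 3 DAT. All dark arrays of Col and ein2/ore3 were low for ARR15, and it was low on 14 of the 24 arrays. ARR15 fell by 2.72 in Col at 1 DAT (6.61-fold, adjusted p = 1.98e-05) and by 1.41 in ahk3/ore12 (2.66-fold, adjusted p = 0.00595, and 0.0563 without ahk3/ore12 1 DAT replicate 2, the call also being lost without replicate 1 of 0 DAT). At 3 DAT the change in ahk3/ore12 was -0.50 (95% interval -1.23 to 0.24, adjusted p = 0.309). The difference of ahk3/ore12 from Col was 1.43 at 1 DAT (adjusted p = 0.0968), and it was called at 1.92 at 2 DAT (3.77-fold, adjusted p = 0.00194) and 2.5 at 3 DAT (5.68-fold, adjusted p = 0.000111). In ein2/ore3 ARR15 differed from Col by -1.39 before darkness (95% interval -2.12 to -0.65, adjusted p = 0.181) and fell by 1.40 at 1 DAT, 1.94 at 2 DAT and 1.29 at 3 DAT (adjusted p = 0.00747, 0.000454 and 0.00863). Without ein2/ore3 0 DAT replicate 2, the higher of the starting arrays, the adjusted p at 1 and 3 DAT were 0.139 and 0.170, and these calls were also lost without ein2/ore3 1 DAT replicate 2 and 3 DAT replicate 1, respectively.

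ARR4, a regulator that also binds phytochrome B, fell in Col and ein2/ore3, and its partner ARR3 was not called in any contrast. ARR4 in Col stood at 13.01 and 12.82 before darkness, and then at 10.20 and 9.33, 9.87 and 8.88, and 9.93 and 9.39. In ein2/ore3 it went from 12.60 and 12.82 through 10.91 and 10.86 and then 10.21 and 10.04 to 9.68 and 9.52. In ahk3/ore12 it stood at 13.00 and 12.95 before darkness and between 12.37 and 12.79 afterwards. In the dark the 2 ein2/ore3 arrays lay above both Col arrays at 1 and 2 DAT and between them at 3 DAT. The fall of ARR4 was 3.15 in Col at 1 DAT (8.88-fold, adjusted p = 6.36e-07). In ein2/ore3 it stood 1.12 above Col at 1 DAT (2.17-fold, adjusted p = 0.0165), at 2 DAT the difference was 0.75 (adjusted p = 0.0789, and 0.0340 with the replicate block), and at 3 DAT it was -0.06 (95% interval -0.67 to 0.55). The call at 1 DAT was lost without Col 1 DAT replicate 2 (0.68, adjusted p = 0.194) and without either ein2/ore3 array of that day. ARR4 was higher in ahk3/ore12 than in Col by 2.62 at 1 DAT (6.15-fold, adjusted p = 0.000531), 3.17 at 2 DAT (8.97-fold) and 3.00 at 3 DAT (7.97-fold, adjusted p = 5.15e-06), and the change within ahk3/ore12 was -0.59 at 1 DAT (95% interval -1.2 to 0.02) and -0.32 at 3 DAT (-0.93 to 0.29).

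ARR3 lay between 6.51 and 8.13 on all 24 arrays and was low on 11 of them, the smallest span of the 10 genes (1.62). None of its contrasts passed the test without a block. The difference between ahk3/ore12 and Col was 0.60 at 0 DAT, 0.34 at 1 DAT, 0.67 at 2 DAT and 0.88 at 3 DAT (95% interval 0.05 to 1.71 on the last day, adjusted p = 0.119). Its replicate 2 was above replicate 1 in each of the 12 conditions, and with the replicate number as a block it was called higher in ahk3/ore12 than in Col at 2 and 3 DAT (adjusted p = 0.0345 and 0.00419), and lower than at 0 DAT in ein2/ore3 at 3 DAT (-0.73, adjusted p = 0.00868) and in ahk3/ore12 at 1 DAT (-0.75, adjusted p = 0.00940). With the block it was also higher in ahk3/ore12 than in ein2/ore3 at 3 DAT (1.06, adjusted p = 0.00251). In the model of genotype and day its genotype term in ahk3/ore12 was 0.62 (SE 0.173, adjusted p = 0.0438), a call lost on leaving out any of 10 arrays (adjusted p = 0.103 without ahk3/ore12 3 DAT replicate 2). This call was also lost with the F-test without moderation.

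ARR8 and ARR9, the pair less strongly induced by cytokinin than the others, stood above Col in both mutants in the dark, and ARR9 fell on each day in every genotype. ARR9 in Col stood at 11.48 and 11.30 before darkness, at 7.55 and 7.37 at 1 DAT, at 6.69 and 6.68 at 2 DAT, and at 6.86 and 6.74 at 3 DAT. In ein2/ore3 it stood at 10.96 and 10.81 before darkness, and then at 9.26 and 8.77, 9.0 and 8.29, and 8.85 and 8.15. In ahk3/ore12 it stood at 11.58 and 11.04, and then at 9.17 and 8.99, 9.32 and 9.60, and 9.44 and 9.06. On each dark day every array of both mutants lay above both Col arrays, and the 4 arrays called low were those of Col at 2 and 3 DAT. ARR9 fell at 3 DAT by 4.59 in Col (24.1-fold, adjusted p = 1.97e-09), by 2.38 in ein2/ore3 (5.22-fold, adjusted p = 4e-06) and by 2.06 in ahk3/ore12 (4.17-fold, adjusted p = 1.72e-05).

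The mutants were measured against the same Col arrays. ARR9 was higher than in Col in ein2/ore3 by 1.56, 1.96 and 1.70 at 1, 2 and 3 DAT (adjusted p = 0.000989, 9.73e-05 and 0.000203), and in ahk3/ore12 by 1.62, 2.77 and 2.45 (adjusted p = 0.0114, 1.44e-05 and 1.42e-05). The call in ahk3/ore12 at 1 DAT was lost without Col 1 DAT replicate 1 or without either ahk3/ore12 array of that day (adjusted p up to 0.116). Compared directly, ahk3/ore12 differed from ein2/ore3 in ARR9 by 0.06 at 1 DAT (95% interval -0.50 to 0.63), 0.81 at 2 DAT (0.25 to 1.38, adjusted p = 0.0648, and 0.0135 with the replicate block) and 0.75 at 3 DAT (0.18 to 1.32, adjusted p = 0.0932, and 0.0205 with the block). ARR8 moved over a smaller span, between 8.29 and 10.59, with no low array. ARR8 fell by 1.90 in Col at 1 DAT (3.73-fold, adjusted p = 2.65e-06), by 0.78 in ein2/ore3 (1.72-fold, adjusted p = 0.00896) and by 1.29 in ahk3/ore12 (2.45-fold, adjusted p = 0.000136). Against Col, ARR8 was higher in ein2/ore3 by 1.16, 0.90 and 0.62 at 1, 2 and 3 DAT (adjusted p = 0.00106, 0.00484 and 0.0317), and in ahk3/ore12 by 1.15 and 1.17 at 2 and 3 DAT (adjusted p = 0.00138 and 0.000616), the difference at 1 DAT being 0.61 (95% interval 0.19 to 1.03, adjusted p = 0.254). In ein2/ore3 the call at 2 DAT was lost without Col 2 DAT replicate 2 (adjusted p = 0.0772), and that at 3 DAT without any of 3 arrays (adjusted p = 0.268 without ein2/ore3 3 DAT replicate 1) and with median centring or quantile normalization. Between the mutants, the difference of ahk3/ore12 from ein2/ore3 in ARR8 at 1 DAT was -0.54 (95% interval -0.97 to -0.12, adjusted p = 0.115, and 0.0189 with the replicate block). At 3 DAT the same difference was 0.55 (0.12 to 0.97, adjusted p = 0.104, and 0.0178 with the block). The fall of ARR8 in ein2/ore3 at 1 DAT lost its call without ein2/ore3 1 DAT replicate 2 (adjusted p = 0.0716) or ein2/ore3 0 DAT replicate 1.

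ARR16 and ARR17 formed the pair that parted ein2/ore3 from the other genotypes. ARR16 in Col stood at 10.16 and 10.11 before darkness, at 9.12 and 7.72 at 1 DAT, at 11.33 and 10.84 at 2 DAT, and at 12.00 and 12.11 at 3 DAT. In ahk3/ore12 it stood at 10.46 and 10.24, and then at 10.54 and 10.68, 11.92 and 11.18, and 12.32 and 11.88. In ein2/ore3 it stood at 7.04 and 8.21 before darkness, and then at 5.07 and 4.96, 4.93 and 4.41, and 5.32 and 5.11. All 6 dark arrays of ein2/ore3, and no other array, were low for ARR16, and the genotype did not overlap with Col on any day. From the lowest mean upward, 2, 1 and 3 DAT of ein2/ore3 came first with ranges that did not overlap, then 0 DAT of ein2/ore3 and 1 DAT of Col with overlapping ranges, and the 3 DAT samples of Col and ahk3/ore12 came last with overlapping ranges.

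ARR16 was lower in ein2/ore3 than in Col by 2.51 before darkness (a difference of -2.51, SE 0.409, 5.70-fold, adjusted p = 0.0143), where it ranked 10 from the lowest among all genes. The call was lost without either Col array or without replicate 1 of ein2/ore3 at 0 DAT (adjusted p up to 0.151, with a difference of -2.48 without Col 0 DAT replicate 1). On the dark days the difference was -3.40 at 1 DAT (10.6-fold, adjusted p = 6.03e-05), -6.42 at 2 DAT (85.3-fold, adjusted p = 1.36e-07) and -6.84 at 3 DAT (115-fold, 95% interval -7.71 to -5.97, adjusted p = 3.38e-08), ranking 3 and 5 from the lowest on the last 2 days. The dark response itself differed between ein2/ore3 and Col by -3.90 at 2 DAT (adjusted p = 0.000654) and -4.33 at 3 DAT (adjusted p = 0.000145), and by -0.90 at 1 DAT (95% interval -2.13 to 0.34, adjusted p = 0.397). Within genotypes, ARR16 fell by 1.72 in Col at 1 DAT (3.28-fold, adjusted p = 0.00461) and rose by 1.92 at 3 DAT (3.78-fold, adjusted p = 0.00131), and it fell by 2.61 in ein2/ore3 at 1 DAT (6.11-fold, adjusted p = 0.000215). The call in Col was lost without replicate 2 (-1.01, adjusted p = 0.0805), and so was that of the gap of 2.19 between ahk3/ore12 and Col on that day (adjusted p = 0.0232), which was also lost without either ahk3/ore12 array (adjusted p up to 0.211). In ahk3/ore12 ARR16 rose by 1.2 at 2 DAT (adjusted p = 0.0371, and 0.305 without ahk3/ore12 2 DAT replicate 1, the call also being lost without either 0 DAT array) and by 1.75 at 3 DAT (3.36-fold, adjusted p = 0.00320). At 3 DAT ahk3/ore12 and Col differed in ARR16 by 0.04 (95% interval -0.83 to 0.92).

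ARR17 repeated the pattern with smaller steps. In Col it stood at 7.26 and 7.81 before darkness, at 6.88 and 6.94 at 1 DAT, at 8.42 and 8.17 at 2 DAT, and at 8.84 and 9.67 at 3 DAT. In ahk3/ore12 it lay at 8.08 and 7.82 before darkness and at 9.01 and 9.35 at 3 DAT, and in ein2/ore3 it lay between 5.64 and 7.12 on all 8 arrays. Thus Col and ahk3/ore12 overlapped at 3 DAT and every ein2/ore3 array lay below those of Col of its day. ARR17 was low on 8 of the 24 arrays. These were Col 1 DAT replicate 2 and every ein2/ore3 array except 0 DAT replicate 2. ARR17 rose by 1.72 in Col at 3 DAT (3.29-fold, adjusted p = 0.000322) and by 1.23 in ahk3/ore12 (2.35-fold, adjusted p = 0.00549, and 0.0531 without ahk3/ore12 3 DAT replicate 2, the call also being lost without replicate 2 of 0 DAT), and its change in ein2/ore3 was -0.48 (95% interval -1.15 to 0.18). At 2 DAT the change in ahk3/ore12 was 0.81 (adjusted p = 0.0642, and 0.0426 with the replicate block). The difference between ein2/ore3 and Col was -0.72 at 0 DAT (adjusted p = 0.713), -0.47 at 1 DAT (adjusted p = 0.397), -2.38 at 2 DAT (5.21-fold, adjusted p = 7.24e-05) and -2.92 at 3 DAT (7.59-fold, adjusted p = 6.33e-06). At 2 DAT the fall of 0.90 within ein2/ore3 (adjusted p = 0.0391) was lost without replicate 2 of that day, the array with the lowest median (-0.62, adjusted p = 0.295), without ein2/ore3 0 DAT replicate 2, and when arrays were centred on their medians or quantile-normalized.

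**Figure D2:**
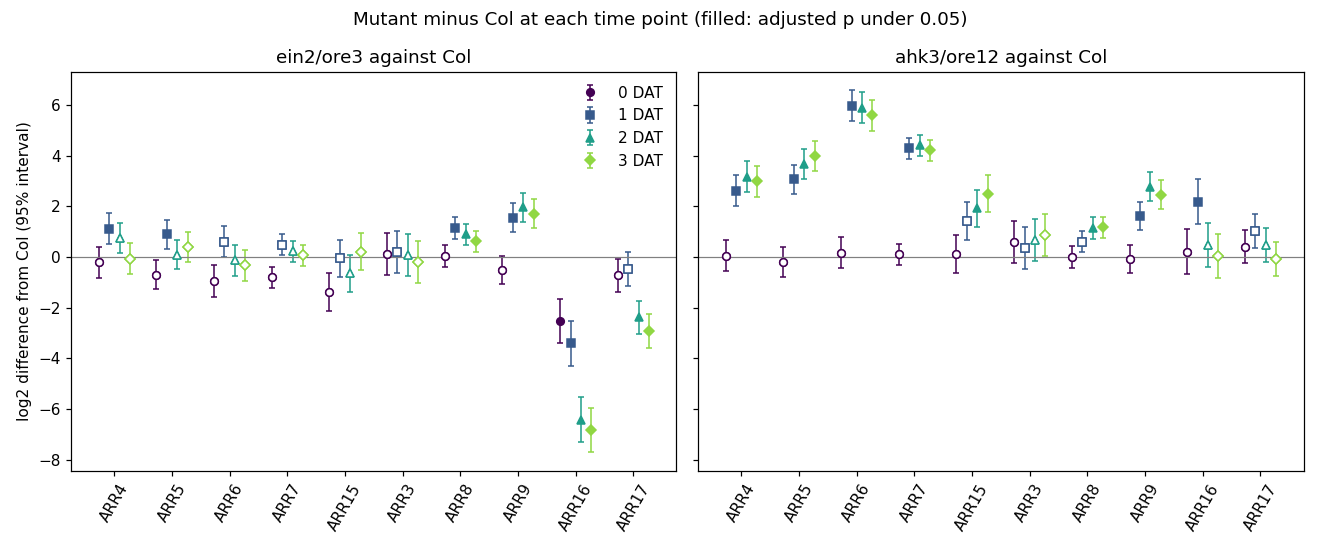
Log2 difference from Col (vertical axis) of each type-A gene in ein2/ore3 (left) and ahk3/ore12 (right) at 0 to 3 DAT. Bars are 95% intervals of the fit to 24 arrays, filled symbols passed an adjusted p of 0.05 and open ones did not. In ahk3/ore12 no gene was called at 0 DAT and ARR6 stood 5.59 to 5.97 above Col on the dark days, while in ein2/ore3 ARR16 reached -6.84.

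Counted over the family, the calls against Col on the dark days were all higher in ahk3/ore12 and went both ways in ein2/ore3. In ahk3/ore12 none of the 10 genes was called at 0 DAT (0.0245% of all genes were called, 0.0153% higher and 0.00919% lower, 8 genes in all, none of the 10 at an unadjusted p under 0.05, and none of the 10 with the replicate block), 6 were called higher at 1 DAT (0.325% of all genes were called higher), 7 at 2 DAT (8.85%) and 7 at 3 DAT (14.8%), and none was called lower (0.306%, 3.16% and 8.36% of all genes on the 3 days). In either direction 0.631%, 12% and 23.1% of all genes were called. At 1 DAT the 6 were ARR4, ARR5, ARR6, ARR7, ARR9 and ARR16, of which 4 were called without either ahk3/ore12 array of that day, and ARR6, ARR7, ARR5 and ARR4 stood at ranks 1, 3, 5 and 6 of 32627. At 2 and 3 DAT the 7 were ARR4, ARR5, ARR6, ARR7, ARR15, ARR8 and ARR9. In ein2/ore3 1 gene, ARR16, was called lower at 0 DAT (0.193% of all genes) and none higher (0.095%). The median difference over the 10 genes at 0 DAT was -0.70, against 0 over all genes. On that day 7 of the 10 lay below Col without overlap (33.4% of all genes did not overlap, in either direction). The unadjusted p was under 0.05 for ARR5, ARR6, ARR7, ARR15, ARR16 and ARR17, each lower than in Col. At 1 DAT 4 genes (ARR4, ARR5, ARR8 and ARR9) were higher and ARR16 was lower (9.64% and 3.62%). Both at 2 DAT (10.4% and 9.9%) and at 3 DAT (14.4% and 10.7%) 2 genes were higher and 2 were lower. In either direction 0.288%, 13.3%, 20.3% and 25.1% of all genes were called at 0, 1, 2 and 3 DAT. The called genes at 2 and 3 DAT were ARR8 and ARR9, which were higher, and ARR16 and ARR17, which were lower. The median difference over the 10 genes at 3 DAT was 2.48 in ahk3/ore12, against -0.10 over all genes, and 0.00 in ein2/ore3, against -0.06.

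**Figure D3:**
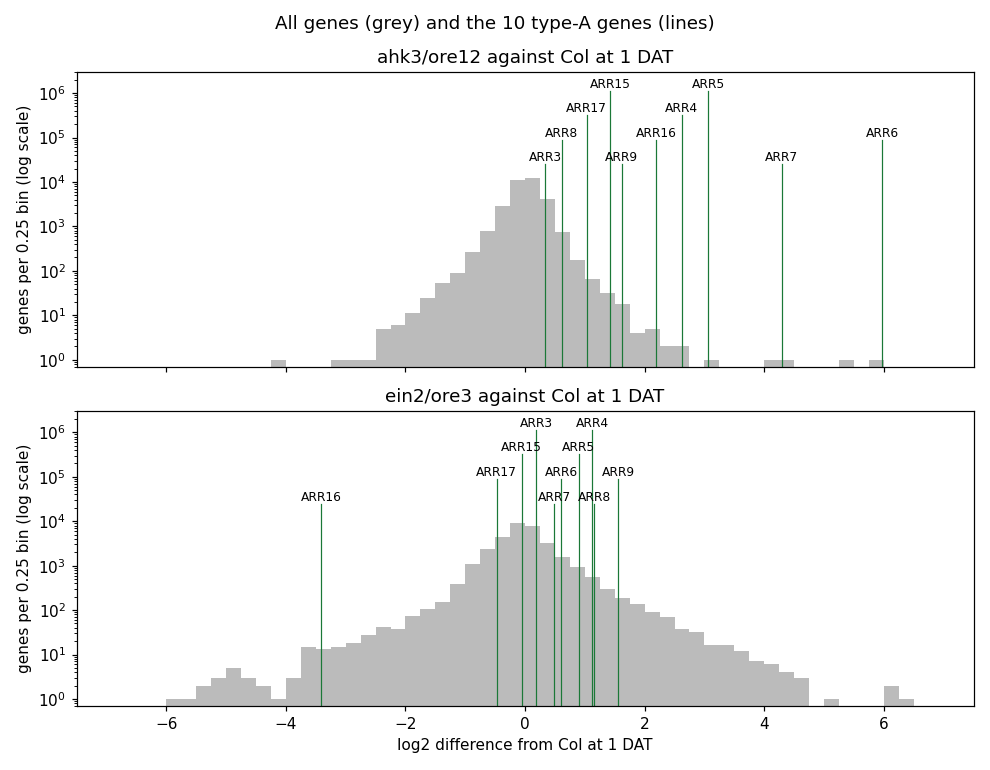
Number of genes per bin of 0.25 (vertical axis, log scale) against the log2 difference from Col at 1 DAT (horizontal axis) for ahk3/ore12 (top) and ein2/ore3 (bottom), with lines at the 10 type-A genes. In ahk3/ore12 ARR6, ARR7, ARR5 and ARR4 stand at 5.97, 4.29, 3.06 and 2.62, in the sparse right end of the distribution. In ein2/ore3 ARR16 stands at -3.40 and the other 9 genes lie between -0.47 and 1.56.

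The dark responses themselves were compared by the difference of the changes from 0 DAT. At 1 DAT only 14 of the 32627 genes had a dark response in ahk3/ore12 that differed from Col (0.0429%), 10 of them with a higher response (0.0306%), and 4 of the 10 were ARR4, ARR5, ARR6 and ARR7. For ARR4 (2.56, adjusted p = 0.0390) the call was lost with median centring and on leaving out any of 21 arrays (adjusted p = 0.205 without Col 0 DAT replicate 1), and ARR9 (1.70, adjusted p = 0.209) was called with the replicate block (adjusted p = 0.0333). With the 16 arrays of Col and ahk3/ore12 alone, 2 of the 4, ARR6 and ARR7, were called. At 2 and 3 DAT 7 members had a higher response in ahk3/ore12 (4.7% and 9.96% of all genes), those called on level. In ein2/ore3 5 members had a higher response at 1 DAT (4.59% of all genes): ARR5, ARR6, ARR7, ARR8 and ARR9. This count fell to 1, ARR9, without Col 0 DAT replicate 1 or ein2/ore3 1 DAT replicate 1. At 2 DAT 2 were higher and 2 lower (6.76% and 4.34%), and at 3 DAT 3 were higher and 2 lower (10.5% and 5.69%). With the replicate block, ARR4 was added at 1 DAT (1.32, adjusted p = 0.0253) and ARR8 at 2 DAT (0.86, adjusted p = 0.00982).

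**Figure D4:**
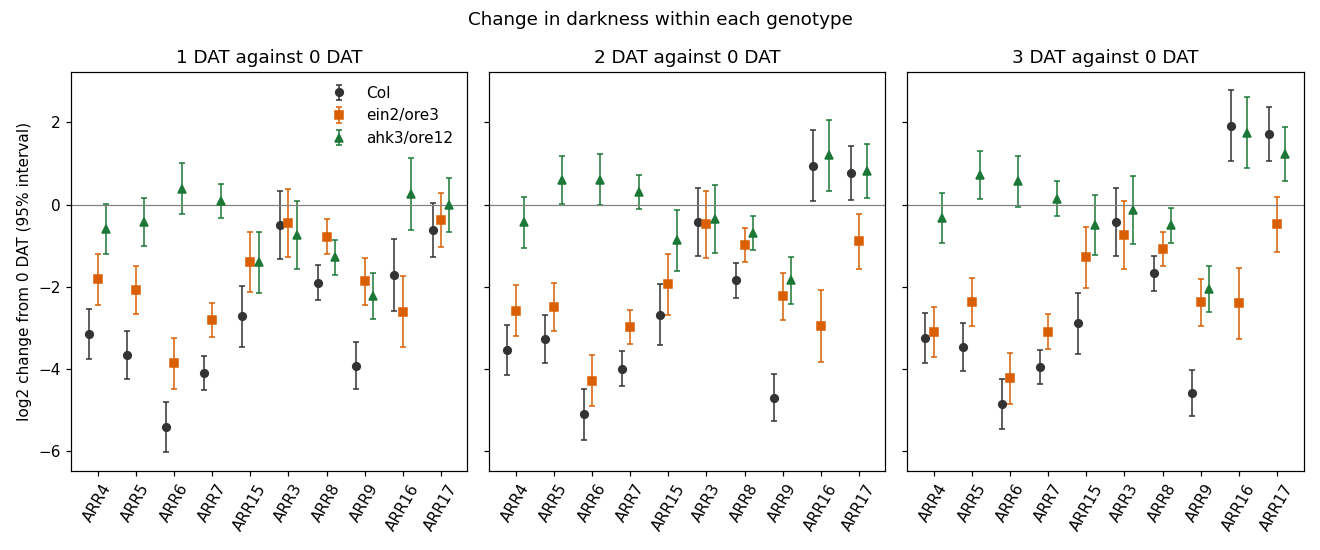
Log2 change from 0 DAT (vertical axis) of each type-A gene at 1, 2 and 3 DAT (panels) in Col, ein2/ore3 and ahk3/ore12, with 95% intervals of the fit. ARR4, ARR5, ARR6 and ARR7 lie between -5.42 and -3.15 in Col at 1 DAT and between -0.59 and 0.38 in ahk3/ore12, and ARR16 in ein2/ore3 lies at -2.41 at 3 DAT where Col lies at 1.92.

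Within the mutants, in ein2/ore3 8, 9 and 8 of the 10 genes were lower than at 0 DAT at 1, 2 and 3 DAT and none was higher (8.87%, 16.1% and 14.6% of all genes were lower, 13.9%, 14.7% and 17.8% higher, and 22.8%, 30.8% and 32.4% called in either direction). In ahk3/ore12 3 genes, ARR15, ARR8 and ARR9, were lower at 1 DAT (12.3% of all genes), 2 were lower and 1, ARR16, higher at 2 DAT (12.3% and 17.8%), and 1, ARR9, was lower and 2 higher at 3 DAT (13.9% and 20.4%). The shares of all genes called in either direction were 25.9%, 30.1% and 34.3%. With the replicate block 5 genes in place of 3 were called in ahk3/ore12 at 3 DAT, ARR5 and ARR8 being added, the latter with a change of -0.51 (adjusted p = 0.0610, and 0.00908 with the block). At 2 DAT the fall of ARR8 in ahk3/ore12 was -0.70 (adjusted p = 0.0132, and 0.145 without ahk3/ore12 0 DAT replicate 1), a call also lost without replicate 2 of 2 DAT.

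The mutants were also compared with each other. At 0 DAT ahk3/ore12 exceeded ein2/ore3 in ARR16 alone, by 2.72 (0.242% of all genes were higher, adjusted p = 0.00618, and 0.141 without ahk3/ore12 0 DAT replicate 1), a call also lost without ein2/ore3 0 DAT replicate 1. With the replicate block 3 genes were called in place of 1, ARR6 (1.12, adjusted p = 0.0441) and ARR7 (0.90, adjusted p = 0.0339) being added. On each dark day 7 genes were higher in ahk3/ore12 (2.32%, 6.47% and 5.46% of all genes at 1, 2 and 3 DAT), namely ARR4, ARR5, ARR6, ARR7, ARR15, ARR16 and ARR17, and none was lower (7.02%, 3.9% and 4.88%). With the replicate block 8, 8 and 10 genes were called at 1, 2 and 3 DAT, ARR8 being added as lower at 1 DAT (-0.54). The difference was 6.01 for ARR6 (64.7-fold, adjusted p = 1.56e-08) and 6.88 for ARR16 (118-fold, adjusted p = 1.55e-07) at 2 DAT. At 1 DAT the call of ARR15 (1.48, adjusted p = 0.0127) was lost without ein2/ore3 1 DAT replicate 2 (adjusted p = 0.117) or ahk3/ore12 1 DAT replicate 1, and that of ARR17 (1.5, adjusted p = 0.00574) without ein2/ore3 1 DAT replicate 1 (adjusted p = 0.0991).

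In the model of genotype and day that the study's methods describe, fitted to the 16 arrays of Col and a mutant, the genotype term of ahk3/ore12 was called higher in 8 of the 10 genes (5.11% of all genes) and lower in none (3.86%). The exceptions were ARR16 (0.73, adjusted p = 0.124) and ARR17 (0.46, adjusted p = 0.0785). With the F-test without moderation 7 genes were called, ARR3 being lost. The term was 4.41 for ARR6 (SE 0.680, adjusted p = 0.0237) and 0.73 for ARR8 (SE 0.163, adjusted p = 0.0305). This model held no term for a genotype difference that changed between days, so such a change entered the residual and the SE. For ARR6 the difference of ahk3/ore12 from Col was 0.17 at 0 DAT and 5.97, 5.89 and 5.59 at 1, 2 and 3 DAT. Each had an SE of 0.289 in the model of all arrays. The adjusted p of the 8 lay between 0.0237 and 0.0438, and none of the 10 was called when any of the 8 arrays of Col or ahk3/ore12 at 2 or 3 DAT was left out. In the model of all arrays, the dark-day differences of ARR6 between ahk3/ore12 and Col were called on leaving out any array. How far changes between days account for the lost genotype terms was not tested. In ein2/ore3 the term was called higher for ARR8 (0.68, adjusted p = 0.00545) and ARR9 (1.18, adjusted p = 0.0129; 10.7% of all genes), and lower for ARR16 (-4.79, adjusted p = 0.000236) and ARR17 (-1.62, adjusted p = 0.00431; 8.55%). These 4 calls were made on leaving out any of the 16 arrays.

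Across the 12 condition means, which share arrays, days and genotypes, Pearson's correlation within the pairs was 0.98 for ARR5 and ARR6, 0.94 for ARR7 and ARR15, 0.95 for ARR8 and ARR9, 0.96 for ARR16 and ARR17, and 0.88 for ARR3 and ARR4. ARR6 and ARR7, of different pairs, correlated at 1.00. ARR9 correlated at 0.72 with ARR6 and at -0.04 with ARR16, and ARR16 at 0.55 with ARR6. Condition means spanned at least 1 for 13311 genes, and those outside the cytokinin and marker lists were searched for like patterns. The genes most like the mean of the 10 standardised members were AT3G57070 (0.977), RL3 (0.946) and UGT76C2 (0.946). AT3G57070 lies near ARR9 in gene order, with 5 annotated genes between them. UGT76C2 encodes a cytokinin N-glucosyltransferase, and its condition means in ahk3/ore12 went from 9.94 to 10.79 while those in Col went from 10.12 to 8.07. It was also the closest gene to each of ARR5 (0.964), ARR6 (0.979) and ARR7 (0.972). The closest to ARR4 was AMP1 (0.963), whose mutants have raised cytokinin, to ARR8 the thylakoid kinase gene STN8 (0.983), to ARR9 AT5G11020 (0.985), to ARR15 MES8 (0.941), to ARR16 AT1G35830 (0.954), to ARR17 AT1G17230 (0.946) and to ARR3 ARP9 (0.885).

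Upstream, AHK3 transcript was not called against Col in either mutant: its difference between ahk3/ore12 and Col was 0.04 at 0 DAT and -0.10 at 3 DAT (SE 0.112, adjusted p = 0.548), and a transcript level does not check a gain-of-function allele. ARR2, the type-B regulator tied to AHK3 in leaf senescence, rose in the dark in all genotypes, by 2.53 in Col (adjusted p = 5.22e-11), 1.83 in ein2/ore3 and 1.60 in ahk3/ore12 at 3 DAT, and was lower than Col in ahk3/ore12 by a difference of -1.0 (adjusted p = 7.85e-06). The receptor gene AHK4 fell in all genotypes on the first day, by 2.78 in Col, 1.95 in ein2/ore3 and 1.36 in ahk3/ore12 (adjusted p = 2.44e-07, 1.64e-05 and 0.000333). In ahk3/ore12 its change was -0.49 at 2 DAT (adjusted p = 0.138) and 0.05 at 3 DAT (adjusted p = 0.889). AHK4 stood at 10.85 and 10.74 before darkness and at 8.47 and 8.49 at 3 DAT in Col, and at 10.48 and 10.69 and then 10.64 and 10.63 in ahk3/ore12. It fell by 2.31 in Col at 3 DAT (adjusted p = 8.68e-07) and by 2.33 in ein2/ore3, and was 2.16 above Col in ahk3/ore12 (adjusted p = 1.38e-05).

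For the rest of the pathway at 3 DAT, ahk3/ore12 was higher than Col in 1 of 3 receptors (AHK4) and lower in none. Of the 6 phosphotransfer genes 1 was higher (AHP5, 0.34, adjusted p = 0.0278) and 1 lower (AHP2, -0.30, adjusted p = 0.0361). Of the 11 type-B genes 1 was higher (ARR14, 1.78, adjusted p = 1.45e-05) and 2 were lower (ARR2, and ARR21 at -0.77, adjusted p = 0.0469). Of the 13 genes of cytokinin breakdown and synthesis 3 were higher and 2 lower, with CKX2 at -3.04 (adjusted p = 0.0310) and CKX1 at 2.45 (adjusted p = 4.78e-07), both encoding cytokinin oxidases. Of the 6 cytokinin response factors 2 were higher, CRF5 (1.97, adjusted p = 0.000169) and CRF6 (1.68, adjusted p = 0.000300). These counts stand beside 14.8% of all genes higher and 8.36% lower. With the replicate block AHP3 (0.51, adjusted p = 0.0496) and CRF4 (0.69, adjusted p = 0.0129) were also called higher and CYP735A2 (-0.58, adjusted p = 0.0253) lower.

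In ein2/ore3 at 3 DAT none of the 3 receptors was called against Col (14.4% of all genes were higher and 10.7% lower). Of the phosphotransfer genes 2 were higher and 2 lower, with AHP1 at -2.82 (adjusted p = 5.11e-06) and AHP4 at 2.41 (adjusted p = 9.54e-08). Type-B genes were higher in 2 cases (ARR14 1.80 and ARR11 0.88) and lower in 1, ARR2 (-0.67, adjusted p = 0.000161). Of the breakdown and synthesis genes 1 was higher and 2 were lower, CKX2 (-5.24, adjusted p = 0.000710) and CKX5 (-1.74, adjusted p = 1.97e-05). The response factors CRF5 (1.14, adjusted p = 0.00773) and CRF6 (0.97, adjusted p = 0.0115) were higher. With the replicate block CRF4 (0.56, adjusted p = 0.0342) was also called higher and CKX3 (-1.31, adjusted p = 0.0106) lower. Leaf transcripts of photosynthesis moved with the genotypes as well, all 5 of the leaf markers being called higher than Col at 3 DAT in both mutants. LHCB2.1, which encodes an antenna protein, was 2.35 above Col in ahk3/ore12 (adjusted p = 3.77e-05) and 2.23 above in ein2/ore3 (adjusted p = 3.4e-05), and GAPB, of the Calvin cycle, 1.88 and 1.35 above. Their part in the type-A values was not tested.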

How the data were processed

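In all, 2 biological replicates of 12 conditions (24 Cy3-labelled NimbleGen arrays) were analysed. The authors made linear RMA intensity values per transcript variant (background correction, quantile normalization, median polish) and deposited a series table of log2 values per gene from the summed variants. The log2 table was used as deposited, with 2 decimals. It differed from the log2 of the summed deposited intensities by at most 0.00514. No further normalization or filter was applied. Gene symbols came from RefSeq (TAIR10.1), which matched 31993 of 32627 genes, and no coordinates were taken from it. Probe sequences were not analysed here, so signal shared between close paralogues was not checked.

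Linear models (lmFit and eBayes of limma 3.58.1, run under R 4.3.3) gave standard errors, 95% intervals and p-values adjusted by Benjamini and Hochberg's method over all 32627 genes. The model of all arrays had 12 group means over 24 arrays and was used for contrasts between days, genotypes and dark responses (adjusted p under 0.05). The methods' designs, genotype plus day on 16 arrays (0.05) and an F-test over days in Col (0.01), were fitted with moderated variances. With 2 arrays per group the number of arrays limits the precision (SE of a member's difference 0.198 to 0.409). Some of the contrasts, a genotype term and the F-test over days in Col were first tested on simulated data that held known differences.

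All replicates numbered 1 were hybridised on one slide and all numbered 2 on another, 12 arrays each, so that the number pairs the samples. Deviations of same-numbered samples correlated at a median of 0.302 over 66 pairs of groups (from -0.159 to 0.818, 47 over 0.1). A fit with the replicate as a block is given where it changed a call on a member, or at 3 DAT a call between a mutant and Col on another gene of the cytokinin lists. Each condition lay at the same slide position on both slides, so that position and condition cannot be told apart.

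Other alternatives were summed intensities, the brightest variant, median centring, quantile normalization, leaving out the dimmest 25% of genes, only the arrays of the genotypes compared, other thresholds, F-tests without moderation, and each array left out in turn. All 10 members were named. Of the other cytokinin lists up to 2 called genes with the largest difference were named, besides AHK3 and ARR2. The members and lists were chosen with earlier results of these data known.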

Additional observations from a re-analysis of the deposited data

Results flagged for a closer look

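The change from 0 DAT differed between a mutant and Col, by the test of the difference itself in limma (adjusted p under 0.05), in 32 combinations of type-A gene, mutant and day. Both mutants were set against the same Col arrays. All values are differences of log2 changes, mutant minus Col.

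In ahk3/ore12, where the falls of Col were smaller or not called, the difference was 5.80, 5.72 and 5.42 for ARR6 at 1, 2 and 3 DAT. It was 4.19, 4.31 and 4.11 for ARR7, 3.26, 3.87 and 4.19 for ARR5, and 2.56, 3.11 and 2.94 for ARR4. At 2 and 3 DAT it was 1.80 and 2.40 for ARR15, 1.15 and 1.17 for ARR8, and 2.85 and 2.53 for ARR9. The call of ARR4 at 1 DAT was lost on leaving out any of 21 arrays (adjusted p = 0.205 without Col 0 DAT replicate 1). The call of ARR15 at 2 DAT was lost on leaving out any of 17 arrays (adjusted p = 0.229 without ahk3/ore12 2 DAT replicate 2), and those of ARR8 on leaving out any of 5 and 4 arrays (adjusted p = 0.120 without Col 0 DAT replicate 1 at 2 DAT, and 0.0612 without ahk3/ore12 0 DAT replicate 2 at 3 DAT).

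In ein2/ore3 the difference at 1 DAT was 1.58 for ARR5, 1.56 for ARR6, 1.29 for ARR7, 1.12 for ARR8 and 2.06 for ARR9. At 2 DAT it was 1.02 for ARR7 and 2.46 for ARR9, and at 3 DAT 0.86 for ARR7, 1.60 for ARR15 and 2.20 for ARR9. The opposite sign was found for ARR16 (-3.90 at 2 DAT and -4.33 at 3 DAT) and ARR17 (-1.66 at 2 DAT and -2.20 at 3 DAT). The level of ARR15 in ein2/ore3 differed from Col by 0.215 at 3 DAT (adjusted p = 0.793). At 0 DAT its level differed by -1.385 (adjusted p = 0.181), and neither difference was called. ARR15 was low on all dark arrays of both genotypes. At 0 DAT ein2/ore3 also differed from Col by -0.69, -0.95, -0.80 and -0.505 in ARR5, ARR6, ARR7 and ARR9, and by 0.035 in ARR8. None of these was called. ARR6 was low on all dark arrays of both genotypes, and ARR7 on all except ein2/ore3 1 DAT replicate 1. The part of starting levels and of low values in these differences of response, with the 1.60 of ARR15, was not tested. The calls of ARR5 and ARR6 at 1 DAT were lost on leaving out any of 5 and 9 arrays (adjusted p = 0.137 and 0.196 without Col 0 DAT replicate 1), and those of ARR7 at 1, 2 and 3 DAT on leaving out any of 2, 6 and 18 (highest adjusted p 0.0866, 0.118 and 0.160). The call of ARR8 at 1 DAT was lost on leaving out any of 6 arrays (adjusted p = 0.131 without Col 0 DAT replicate 1), that of ARR15 at 3 DAT on leaving out any of 6 (0.170 without ein2/ore3 0 DAT replicate 1) and that of ARR17 at 2 DAT on leaving out any of 4 (0.122 without Col 0 DAT replicate 1).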

How the results depend on the processing

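No call changed direction under any alternative. Of 167 calls on single genes, 123 passed under every alternative other than the stricter threshold and 44 were lost under at least 1. Counts below are of the 10 genes called. At an adjusted p of 0.01 the count was 1 (3 at 0.05) for 2 against 0 DAT in ahk3/ore12, 0 (1) and 3 (5) for ein2/ore3 against Col at 0 and 1 DAT, 1 (5), 2 (4) and 3 (5) for the dark responses of ein2/ore3 against Col at 1, 2 and 3 DAT, and 0 (8) for the genotype term of ahk3/ore12. With only the arrays of the genotypes compared, which are already those of the genotype terms and the Col F-test, it was 5 (3) for 2 against 0 DAT in ahk3/ore12, 0 (1) for ein2/ore3 against Col at 0 DAT, 2 (4) for the dark response of ein2/ore3 at 2 DAT and 2 (4) for that of ahk3/ore12 at 1 DAT. For 3 against 0 DAT in ahk3/ore12 it was 5 (3) without the dimmest 25% of genes and 5 with the replicate block. Between the mutants at 0 DAT it was 2 (1) with median centring or quantile normalization and 3 with the replicate block, and for ein2/ore3 against Col at 0 DAT 2 (1) with quantile normalization. The F-test without moderation called 5 (9) over days in Col. The cause of these shifts was not tested. The replicate block lost none of the 167 calls. Leaving out the dimmest 25% of genes removed ARR15.

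On leaving out 1 array in turn, the counts ranged from 3 to 5 for 3 against 0 DAT in ahk3/ore12 (5 without either ahk3/ore12 array of 1 DAT), 0 to 2 for ein2/ore3 against Col at 0 DAT, 3 to 5 at 1 DAT, and 0 to 2 between the mutants at 0 DAT. They ranged from 1 to 5, 2 to 4 and 3 to 5 for the dark responses of ein2/ore3 against Col at 1, 2 and 3 DAT, from 0 to 8 for the genotype term of ahk3/ore12, and from 5 to 8 for the F-test in Col.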

Other observations

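When likeness was measured over the 24 arrays in place of the 12 condition means, the leading genes for the mean of the 10 members were again AT3G57070 (0.952), RL3 (0.933) and UGT76C2 (0.924). UGT76C2 was again first for ARR5, ARR6 and ARR7, AMP1 for ARR4 and STN8 for ARR8. The first gene was a different one for ARR3 (AT4G16940, 0.838), ARR15 (RL3, 0.903), ARR9 (AT5G44005, 0.978), ARR16 (NAC083, 0.949) and ARR17 (AT5G51030, 0.915). The condition means of NAC083, a gene of the NAC transcription factor family, were 13.01 in Col, 12.50 in ein2/ore3 and 13.16 in ahk3/ore12 at 0 DAT, and 13.77, 12.16 and 13.91 at 3 DAT. These likenesses are descriptions over points that share arrays, and no test was made.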
